A study of Homo sapiens with 6 samples.

Results

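Many protein-coding genes also make transcripts that carry no annotated reading frame of their own. In the RefSeq catalogue these have NR accessions, while the coding transcripts of the same gene have NM accessions. The NR isoforms of protein-coding genes were studied here in 6 libraries. A gene was included when it had at least 1 NR and 1 NM transcript and when its transcripts together reached 5 TPM (an abundance scaled for transcript length and library size) in every library. Small nucleolar, small Cajal body and microRNA genes were left out. The rule gave 1412 genes of 27408 in the table, and 9408 genes reached the same level. Of the 1412 genes, 892 had 1 NR transcript, 291 had 2, 192 had 3 to 5 and 37 had 6 or more, up to 28. Together they held 2522 NR and 5090 NM transcripts. The genes were thus chosen by their total level in all 6 libraries, so that level is given as a description, while the NR share, the percentage of a gene's TPM in NR transcripts, was not used to choose them. Just inside the threshold were LCORL, with 5.011 TPM in its lowest library, and POU2F1 with 5.013. Just outside were C6orf52, with 4.996 TPM, and TCF7 with 4.920.

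The study asked what ESRP1 and ESRP2 do in pancreatic cancer. Established lines from human pancreatic tumours, MIA-PaCa2 and PANC-1, carried the LPCX control, ESRP1 or ESRP2, the last 2 described as overexpressing. ESRP1 and ESRP2 are RNA-binding proteins that steer exon choice in epithelial cells. There was 1 library for each line and construct, so a construct within a line has no replicate, and the labels do not say whether a culture was a clone or a pool. All libraries were made from total RNA with an mRNA kit and all cells grew in the same medium.

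ESRP1 stood at 367 TPM in the MIA-PaCa2 ESRP1 library and 491 TPM in the PANC-1 one, against 0.0781 to 0.261 TPM in the other libraries. ESRP2 stood at 197 TPM in MIA-PaCa2 ESRP2 and 308 TPM in PANC-1 ESRP2. PANC-1 also held 34.8 TPM of ESRP2 with LPCX and 37.7 TPM with ESRP1, while both other MIA-PaCa2 libraries were at 0.106 TPM or lower. Keratins KRT8, KRT18 and KRT19 were expressed in every library, as was VIM. Other epithelial markers were low or absent in MIA-PaCa2. KRT7 was at 0.176 to 0.475 TPM in MIA-PaCa2 and 1.57 to 2.00 TPM in PANC-1. CDH1 was at 0.112 to 0.173 TPM in MIA-PaCa2 and 3.89 to 8.59 TPM in PANC-1. EPCAM was listed at 0 in MIA-PaCa2 and stood at 24.3 to 28.2 TPM in PANC-1. The leukocyte markers summed to 0.442 to 1.58 TPM, the endothelial markers to 0.214 to 3.20 TPM, and the acinar and islet markers to 0.302 TPM or less. Of the fibroblast markers, DCN and LUM stayed under 0.1 TPM, while COL1A2 was at 122 to 132 TPM in MIA-PaCa2 and COL1A1 at 66.4 to 108 TPM in PANC-1. Their part in the differences between the lines below was not tested. In bulk libraries, fewer cells with an isoform and less of it per cell cannot be told apart.

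An NR isoform often arises when splicing adds an exon, skips one or keeps an intron so that the reading frame meets a stop codon early. When such a stop lies well upstream of the last exon junction, a protein complex deposited at that junction marks the transcript, and nonsense-mediated decay (NMD) removes it after a first round of translation. Several splicing factors, SR proteins above all, control their own level in this way, by including a so-called poison exon. Other NR isoforms lack the start codon, end inside an intron or overlap an upstream reading frame, and some run through into a neighbouring gene.

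Pairing with GENCODE release 29 gave the structure of the NR isoforms. Of the 2522 transcripts, 1041 were matched to 1 GENCODE transcript of their own, 986 shared a match with another RefSeq transcript, 5 matched several and 490 were not paired. Among the 1041, GENCODE classes 610 as nonsense-mediated decay, 216 as protein coding, 158 as processed transcript and 43 as retained intron. With the shared matches included, protein coding was the largest class with 1003 transcripts, and nonsense-mediated decay had 746. For 607 of the 610 NMD transcripts a stop and a downstream junction could be read. In all 607 the stop lay more than 50 bases upstream of the last junction, with a median distance of 442 bases, a distance that follows from how the class is annotated. Compared with a coding transcript of the same gene, 220 of the 610 skipped an exon, 193 held an extra exon, 139 had other ends or splice sites, 52 had several changes and 2 kept an intron.

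The poison exon arrangement was found in 132 transcripts of 122 genes, each with 1 extra exon that holds the stop. Printed first are 6 of them, from the first base of the extra exon, where the coding sequence enters it, to the stop, which is in capitals. They were chosen after their values were seen, as 2 SR proteins, 1 SR-related factor and 3 genes whose NR share the comparisons below describe. All sequences are the GENCODE 29 reference on GRCh38, 5′ to 3′ on the transcript's strand.
SRSF6 NR_034009: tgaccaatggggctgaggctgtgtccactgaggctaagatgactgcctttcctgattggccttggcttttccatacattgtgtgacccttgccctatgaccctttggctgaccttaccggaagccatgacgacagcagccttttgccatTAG
SRSF3 NR_036610: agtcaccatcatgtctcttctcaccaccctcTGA
RBM39 NR_136587: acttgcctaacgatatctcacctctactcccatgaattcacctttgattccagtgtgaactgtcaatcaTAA
TIMM8B NR_028383: gccacgtgcccgTAG
ZNF142 NR_073599: ccactgcagcttcaTAG
NABP1 NR_045623: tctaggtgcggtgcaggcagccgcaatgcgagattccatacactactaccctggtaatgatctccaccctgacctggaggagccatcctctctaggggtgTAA
These exons lie at chr20:43459153-43459420 on the plus strand for SRSF6, chr6:36599821-36600276 on the plus strand for SRSF3, and chr20:35740525-35740597 on the minus strand for RBM39. The exon of TIMM8B is at chr11:112085978-112086310 on the minus strand, and that of ZNF142 is at chr2:218651701-218651822 on the minus strand. For NABP1 it is at chr2:191682492-191682595 on the plus strand. All 6 are internal exons of the NR transcript in the annotation. The stop ended 15 bases into the exon of TIMM8B and 152 bases into that of SRSF6. From the stop to the last junction the distance ran from 51 bases in RBM39 to 4419 bases in ZNF142.

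Skipping an exon whose length is not a multiple of 3 shifts the frame instead. In the 3 transcripts below the printed sequence starts with the 15 bases before the new junction and runs to the stop in capitals.
FAM169A NR_046462: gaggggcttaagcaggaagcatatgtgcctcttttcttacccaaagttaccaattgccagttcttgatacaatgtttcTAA
MTRR NR_134482: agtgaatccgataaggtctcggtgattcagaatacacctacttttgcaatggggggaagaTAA
FBXO22 NR_037623: gctgcgggtggccTGA
FAM169A skips the exon at chr5:74834426-74834597, on the minus strand and 172 bases long. MTRR skips chr5:7873373-7873526, on the plus strand and 154 bases long. FBXO22 skips chr15:75904491-75904629, on the plus strand and 139 bases long. In FBXO22 the stop spans the new junction itself, since the printed stretch is 16 bases long and 15 of them precede the junction.

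NR isoforms were a minor part of most genes. Over the 1412 genes the mean NR share had a median of 6.11%. It was 5% or more in 776 genes, 10% or more in 532 and 50% or more in 94, and in 61 genes it was 50% or more in each of the 6 libraries. At the other end 228 genes had a mean share under 1%, and in 19 genes the NR transcripts were listed at 0 in all 6 libraries. A minority of genes supplied much of the NR output, since the 10 genes with the most NR TPM held 21.9% of it. By class, the median share of a transcript was 3.96% for NMD transcripts, 3.79% for those GENCODE calls protein coding, 3.51% for processed transcripts and 11.0% for retained introns, among those matched one to one. Within the NMD class it was 5.06% for transcripts with an extra exon and 2.62% for those that skip an exon.

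HNRNPA1, an abundant splicing repressor, had the highest mean NR level. Its NR transcript stood at 572, 546 and 526 TPM in the LPCX, ESRP1 and ESRP2 libraries of MIA-PaCa2, and at 379, 432 and 311 TPM in PANC-1 in the same order. That was between 37.5% and 45.5% of the gene in every library. HNRNPA1 has many near-identical processed copies in the genome, so the split of its reads is uncertain. VDAC1, the main channel of the outer mitochondrial membrane, followed with 518, 541 and 583 TPM in the MIA-PaCa2 libraries and 272, 288 and 285 TPM in those of PANC-1, which was 97.9% to 99.3% of the gene. VDAC1 also has processed copies in the genome. MLF2, a nuclear protein, had an NR share of 71.5% to 78.8%. NOP56, a core protein of the box C/D small nucleolar ribonucleoprotein whose introns host small nucleolar RNAs, had 208 to 265 TPM of NR transcripts. Its share was 64.7% to 76.4% in MIA-PaCa2 and 84.3% to 95.5% in PANC-1, with no overlap between the lines. SFPQ, a splicing and paraspeckle protein, had 43.8% to 48.3%. The share of SAT1, which acetylates spermidine and spermine, ran from 53.7% to 79.6%.

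The highest shares belonged to MPC2, a subunit of the mitochondrial pyruvate carrier, with 98.9% to 99.8% of the gene in NR form. TMEM79 had 96.3% to 100% and IKZF5, an Ikaros family zinc finger protein, had 95.9% to 100%. PABPC1L, a relative of the cytoplasmic poly(A)-binding protein, had 95.4% to 98.9%, and the kinase MAP3K13 had 95% to 97.2%. In these genes nearly all of the quantified abundance fell to transcripts to which RefSeq gives no reading frame. Several other genes at the top are hard to quantify or are not ordinary coding genes. TIMM23B and GOLGA8B are near-identical copies of other genes, NEDD8-MDP1 is a readthrough of neighbouring genes, and CRNDE is mostly known as a long noncoding RNA. Their mean shares were 99.1%, 96.5%, 97.0% and 95.9%.

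The genes were then grouped by function. The lists were chosen with earlier results known, and their values are descriptions. Among hnRNPs and other splicing regulators, 10 of 49 genes at the minimum level had NR and NM transcripts, with a median mean share of 23.9%, against 6.11% for all. For zinc finger proteins it was 36 of 243 genes with a median of 16.5%, and for SR proteins and their kinases 8 of 21 with a median of 9.54%. DNA repair and replication genes gave 21 of 97 and 8.88%, solute carriers 30 of 137 and 8.55%, and ubiquitin enzymes 28 of 202 and 7.41%. Lower medians were found for NMD and exon junction factors, with 4 of 29 genes and 4.26%, aminoacyl-tRNA synthetases with 9 of 35 and 3.90%, and the spliceosome with 14 of 63 and 3.44%. The respiratory chain had 17 of 86 genes and a median of 3.20%, membrane traffic 29 of 175 and 2.85%, and ribosomal proteins 6 of 81 and 2.23%. The lowest values were those of ESRP splicing targets, with 4 of 40 genes and 0.897%, and of the proteasome, with 7 of 44 genes and 0.306%.

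Among the SR proteins and their kinases, SRSF6, whose exon is printed above, had 60.0, 56.7 and 55.1 TPM of NR transcript in the LPCX, ESRP1 and ESRP2 libraries of MIA-PaCa2, and 39.6, 31.9 and 24.3 TPM in those of PANC-1. The shares were 45.9%, 40.6% and 42.4% in the MIA-PaCa2 libraries and 34.2%, 29.4% and 23.8% in those of PANC-1. SRSF3, by contrast, was even across the libraries, between 6.98% and 8.82%. SRSF2 had 3.37% to 3.68% in MIA-PaCa2 and 8.70% to 10.9% in PANC-1. CLK1, a kinase that phosphorylates SR proteins, had 48.0% to 52.4% in NR transcripts, of which NR_027856 keeps an intron and NR_027855 skips an exon. In RBM39, an SR-related splicing factor, the printed isoform NR_136587 had 17.5% to 19.1% in MIA-PaCa2 and 19.8% to 26.5% in PANC-1. The SR gene list is therefore uneven, with mean shares from 5.94% in SRSF1 to 50.3% in CLK1.

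**Figure D1:**
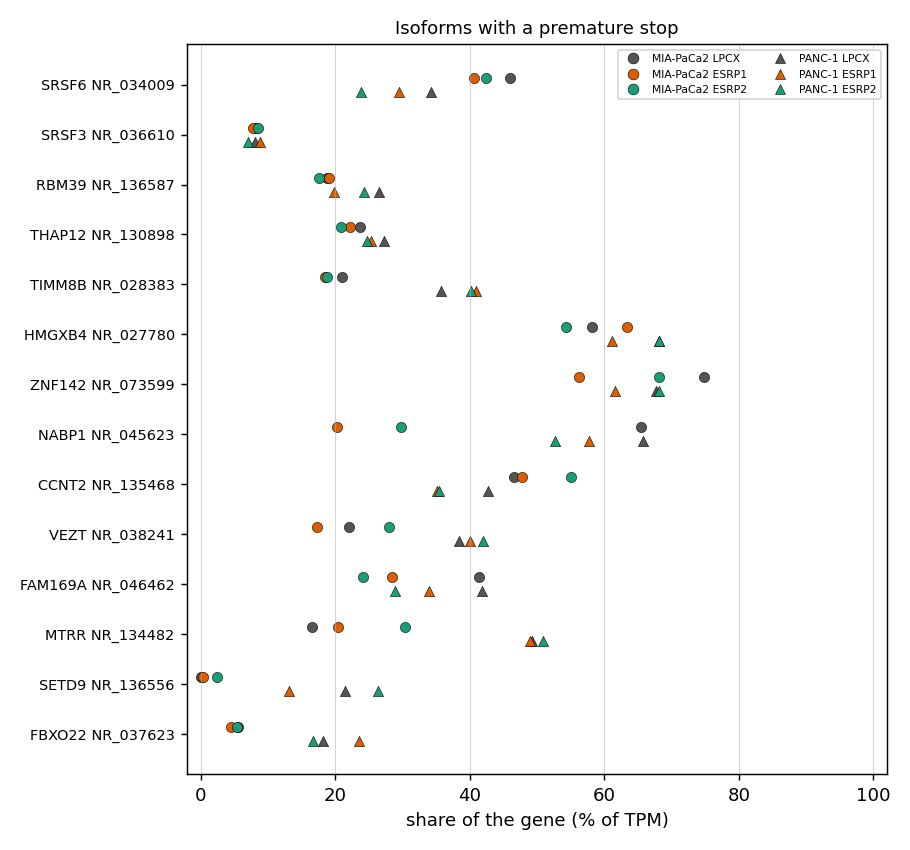
Share of the gene's TPM (horizontal axis, percent) held by 14 NR isoforms with a premature stop, 1 point per library, circles for MIA-PaCa2 and triangles for PANC-1. SRSF3 sits between 6.98% and 8.82% in all 6 libraries, whereas TIMM8B lies at 18.5% to 21.0% in MIA-PaCa2 and 35.7% to 40.9% in PANC-1.

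The next question was whether ESRP1 or ESRP2 moved the NR isoforms. The median of the shares differed by under 1 point between the constructs of a line: the median NR share over the 1412 genes was 5.39% in the LPCX, 5.06% in the ESRP1 and 5.31% in the ESRP2 library of MIA-PaCa2, and 6.83%, 5.98% and 5.84% in those of PANC-1. NR transcripts as a percentage of the genes' summed TPM were 8.73%, 8.33% and 8.94% in the MIA-PaCa2 libraries and 9.90%, 9.47% and 8.96% in those of PANC-1. In PANC-1 both ESRP libraries were below LPCX by both measures. In MIA-PaCa2 the ESRP2 library was below LPCX by the first measure and above it by the second.

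**Figure D2:**
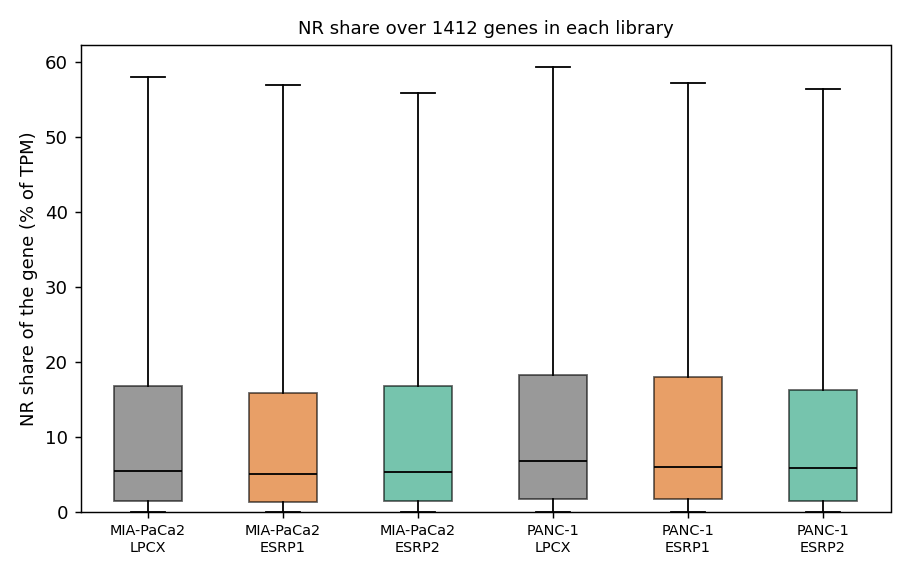
NR share of the gene (vertical axis, percent of TPM) over the 1412 genes in each library. Boxes span the quartiles with the median as a line, and whiskers reach from the 5th to the 95th percentile; the medians run from 5.06% in MIA-PaCa2 ESRP1 to 6.83% in PANC-1 LPCX.

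For a test over both lines, limma was fitted to the log2 odds of each transcript against the rest of its gene, with construct and line as terms, for 13559 transcripts with a mean share of 5% or more. Of the 2522 NR transcripts 892, in 725 genes, passed this filter, and 1630 did not. No NR transcript was called for ESRP1 at an adjusted p under 0.05 (limma, Benjamini-Hochberg), where the background over all transcripts was 0% called. Without adjustment 41 of 892 NR transcripts had p under 0.05, and 767 of all 13559. For ESRP2 none was called, again against a background of 0% over all transcripts, and 46 NR transcripts had an unadjusted p under 0.05, of 850 in all. The smallest adjusted p of an NR transcript in limma was 0.761 for ESRP1 and 0.287 for ESRP2. The median log2 odds of the NR transcripts was -0.08 for ESRP1 and -0.09 for ESRP2, against 0.01 for all transcripts in both. Both constructs are compared with the same LPCX libraries. With 2 residual degrees of freedom, the errors were wide: the standard error for NABP1 NR_045623 was 0.482 on the log2 odds scale and that for FAM169A NR_046462 was 0.217.

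The gene totals gave no call among the 1412 genes either. The rule required 5 TPM in every library, so a gene below that level in any library could not be included. Counts and p-values for the totals of these genes, here and below, are therefore descriptions. With limma on log2(TPM + 1), 0 of 1412 totals were called for ESRP1 (76 at an unadjusted p under 0.05), where 0.00845% of all gene totals were called. For ESRP2 0 were called (162 at an unadjusted p under 0.05), where 0.0169% of all were. The total of ESRP1 itself was called in the ESRP1 contrast (log2 difference 8.51, SE 0.130, adjusted p = 5.36e-05, limma). That of ESRP2 was not called in the ESRP2 contrast (log2 difference 5.32, SE 1.11, adjusted p = 0.329, limma). With LPCX, ESRP2 was at 0.0704 TPM in MIA-PaCa2 and 34.8 TPM in PANC-1. The fit can thus miss a large difference whose size is unlike in the lines.

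Single differences within a line were described by a step of 10 percentage points in the NR share of the gene. Against LPCX, the ESRP1 library had 26 genes higher and 39 lower by the step in MIA-PaCa2, which is 4.60% of the 1412 genes, and 36 higher and 31 lower in PANC-1, which is 4.75%. The 1412 genes carry no filter on the share, while the 13559 transcripts have a mean share of at least 5%, so the 892 NR transcripts that meet the same filter are the like set. Of these 72 passed the step in MIA-PaCa2 (8.07%, 29 higher and 43 lower) and 72 in PANC-1 (8.07%, 42 higher and 30 lower), beside 12.0% and 10.1% of all 13559 transcripts. The ESRP2 library had 33 higher and 46 lower in MIA-PaCa2 (5.59%) and 30 higher and 41 lower in PANC-1 (5.03%). Of the 892 NR transcripts, 101 (11.3%) and 78 (8.74%) passed the step with ESRP2, beside 13.7% and 11.2% of all transcripts. Genes past the step were low: the median of their lowest gene total was 10.7 to 11.5 TPM, against 24.3 TPM for all 1412. The controls of the lines are separate libraries. For ESRP1 4 of the 1412 genes (0.283%) passed the step in the same direction in both lines and 10 in opposite directions. Among the 892 NR transcripts it was 5 in the same direction (0.561%, beside 1.73% of all transcripts) and 9 in opposite directions (1.01%, beside 1.39%). For ESRP2 7 genes (0.496%) passed it in the same direction and 11 in opposite directions. The NR transcripts gave 13 in the same direction (1.46%, beside 2.29% of all transcripts) and 12 in opposite directions (1.35%, beside 1.53%). The following values are descriptions of single libraries.

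With ESRP1, higher shares in both lines were found for DUS4L and PHF1. DUS4L, a tRNA dihydrouridine synthase, went from 14.2% with LPCX to 24.6% with ESRP1 in MIA-PaCa2 and from 31.4% to 43.9% in PANC-1. PHF1, a partner of the Polycomb repressive complex, went from 26.0% to 38.2% and from 40.1% to 52.0%. PHF1 is the best expressed of the 4, with 34.3 TPM or more in every library, and its NR_027692 had a log2 odds difference of 0.73 (SE 0.206, adjusted p = 0.805, limma). Lower shares were found for EEF1AKMT1, a lysine methyltransferase of elongation factor eEF1A, and for ZNF142, a zinc finger protein. EEF1AKMT1 was at 33.4% with LPCX and 20.3% with ESRP1 in the MIA-PaCa2 libraries, and at 32.5% and 20.8% in those of PANC-1. Its total was only 5.54 to 6.37 TPM in PANC-1. ZNF142 was at 76.9% and 66.5% in the MIA-PaCa2 libraries and at 73.1% and 61.6% in those of PANC-1. In both ZNF142 comparisons NR transcripts remained the larger part of the gene.

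With ESRP2, 4 genes had a higher share in both lines. IDUA, the lysosomal alpha-L-iduronidase, was listed at 0% with LPCX and stood at 32.2% with ESRP2 in MIA-PaCa2, and went from 27.3% to 42.9% in PANC-1. Its NR transcript held only 3.45 TPM or less, at gene totals of 6.56 to 10.7 TPM. DFFB, the caspase-activated DNase, was at 16.9% and 34.1% in the MIA-PaCa2 libraries and at 26.1% and 41.0% in those of PANC-1, but at only 1.01 to 2.59 TPM of NR transcripts. Its isoform NR_135150 had 8.72%, 13.8% and 20% of the gene in the LPCX, ESRP1 and ESRP2 libraries of MIA-PaCa2 and 3.62%, 16.4% and 29.8% in PANC-1. Both lines therefore had LPCX lowest and ESRP2 highest for this isoform, with a log2 odds difference of 1.5 for ESRP2 (SE 0.379, adjusted p = 0.694, limma). U2AF1L4, a relative of the small subunit of the splicing factor U2AF, was at 43.0% and 65.1% in the MIA-PaCa2 libraries and at 58.9% and 71.1% in those of PANC-1. ANKS3 was at 58.5% and 70.5% in the MIA-PaCa2 libraries and at 43.5% and 55.5% in those of PANC-1. GENCODE classes the NR transcript of ANKS3 as protein coding.

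Lower shares with ESRP2 in both lines were found for FAM169A, NABP1 and C8orf59. FAM169A, whose frame-shifting junction is printed above, had 41.4%, 28.4% and 24.1% in the LPCX, ESRP1 and ESRP2 libraries of MIA-PaCa2 and 41.8%, 33.9% and 28.8% in those of PANC-1. The 2 LPCX libraries were the highest of the 6 and the log2 odds difference for ESRP2 was -0.90 (SE 0.217, adjusted p = 0.689, limma). NABP1, a single-stranded DNA-binding protein, had 67.5%, 22.5% and 46.7% in the MIA-PaCa2 libraries and 66.0%, 57.7% and 55.7% in those of PANC-1. Its printed NR_045623 carried most of that, with 65.4%, 20.3% and 29.7% in the MIA-PaCa2 libraries and 65.7%, 57.7% and 52.6% in those of PANC-1. In MIA-PaCa2 the whole gene was at 5.31 to 6.50 TPM, against 29.9 to 34.4 TPM in PANC-1. C8orf59 had 14.9% with LPCX and 4.65% with ESRP2 in the MIA-PaCa2 libraries, and 17.1% and 6.38% in those of PANC-1. GENCODE classes the NR transcript of C8orf59 as protein coding.

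**Figure D3:**
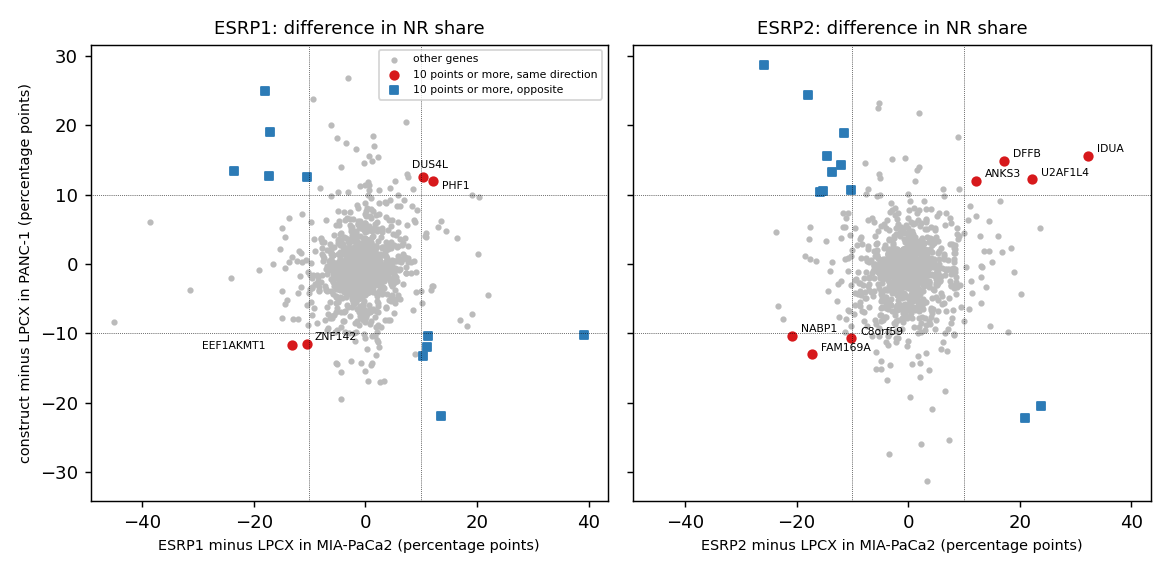
Difference in NR share between an ESRP library and the LPCX library of its line, in percentage points, in MIA-PaCa2 (horizontal axis) and PANC-1 (vertical axis), 1 point per gene, with ESRP1 on the left and ESRP2 on the right; dotted lines mark the step of 10 points. Red circles are the 4 and 7 genes past the step in the same direction in both lines, blue squares the 10 and 11 past it in opposite directions.

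Among the tested NR transcripts, the smallest adjusted p for ESRP2 in limma, 0.287, was that of RBPMS2 NR_138364, an isoform of an RNA-binding protein known from smooth muscle. It had 38.9%, 41.1% and 0.00785% of the gene in the LPCX, ESRP1 and ESRP2 libraries of MIA-PaCa2 and 34.1%, 22.3% and 3.30% in those of PANC-1. The isoform was lowest with ESRP2 in both lines (log2 odds -3.82, SE 0.435, adjusted p = 0.287, limma). A second NR isoform of the gene, NR_138363, was highest there, with 19.6%, 19.4% and 34.8% in the MIA-PaCa2 libraries and 8.13%, 10.0% and 44.8% in those of PANC-1 (log2 odds 2.03, SE 0.527, adjusted p = 0.694, limma). Since 1 NR isoform was high where the other was low, the NR share of the gene as a whole differed from LPCX by -23.6 points in MIA-PaCa2 and 4.54 points in PANC-1.

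Next in order for ESRP2 were EDRF1 NR_110859 and PRKAB2 NR_103871. The EDRF1 isoform had 13.6%, 3.39% and 1.77% in the LPCX, ESRP1 and ESRP2 libraries of MIA-PaCa2, and 15.6%, 5.42% and 4.92% in those of PANC-1. For ESRP2 its log2 odds difference was -1.73 (SE 0.306, adjusted p = 0.491, limma). The isoform of PRKAB2, a regulatory subunit of AMP-activated protein kinase, had 3.38%, 11.4% and 13.6% in the MIA-PaCa2 libraries and 0.00182%, 10.7% and 13.7% in those of PANC-1. Its difference for ESRP2 was 1.74 (SE 0.320, adjusted p = 0.511, limma). In both transcripts the LPCX libraries lay on 1 side of all 4 ESRP libraries, and neither passed the test. The gene totals were low, 15.9 to 22.4 TPM for EDRF1 and 9.91 to 10.9 TPM for PRKAB2. All NR transcripts of PRKAB2 together held 0.724 to 1.72 TPM, near the pseudocount of 0.5 TPM. Among known ESRP splicing targets OSBPL3, an oxysterol-binding protein relative, had the highest mean NR share, 8.87%. It had 7.59%, 12.7% and 15.2% in the MIA-PaCa2 libraries and 6.85%, 5.41% and 5.44% in those of PANC-1, so the lines differed in direction. In PANC-1 its NR transcripts held only 0.409 to 0.741 TPM, so the direction there is uncertain.

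The lines were compared next. The 3 library medians of the NR share averaged 5.25% ± 0.170 (SD, n = 3) in MIA-PaCa2 and 6.22% ± 0.535 (SD, n = 3) in PANC-1, higher in PANC-1 by 0.968 points. All 3 PANC-1 medians lay above all 3 MIA-PaCa2 medians, with an exact two-sided permutation p of 0.1, the smallest that 3 against 3 can give. NR transcripts as a percentage of summed TPM averaged 8.67% ± 0.310 (SD, n = 3) and 9.44% ± 0.468 (SD, n = 3), an excess of 0.775 points, again with an exact permutation p of 0.1. The 3 libraries of a line carry different constructs, so these errors hold the construct differences and there is 1 cell line on each side.

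In limma, 148 of the 892 NR transcripts were called between the lines, in 140 genes, where the background was 16.9% of all transcripts called. Of these 97 had higher odds in PANC-1 and 51 lower, where the background over all transcripts was 8.02% higher and 8.90% lower. The median log2 odds difference of PANC-1 minus MIA-PaCa2 was 0.10 for the NR transcripts and -0.02 for all transcripts. Leaving out 1 library reduced the calls to between 10 and 24. After leaving out each of the 6 libraries in turn, 8 of the 148 were called every time and 122 in none of the 6 fits. The 8 belong to KLK4, TNFRSF1A, LMF1, IPO4, ARRB2, UNK, ZNF585A and MOK. The filter on the share took the mean over all 6 libraries, so a transcript could pass it through 1 line alone. Among these 8, those of TNFRSF1A and IPO4 did so, through the line in which their share was high.

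By share alone, the 3 libraries of the lines did not overlap and the means differed by 10 points or more in 84 genes with PANC-1 higher, which is 5.95% of the 1412, and in 46 with PANC-1 lower, which is 3.26%. Among the 892 NR transcripts with a mean share of at least 5% the same rule took 83 higher in PANC-1 (9.30%) and 53 lower (5.94%). Over all 13559 transcripts under that filter it took 8.47% in each direction.

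**Figure D4:**
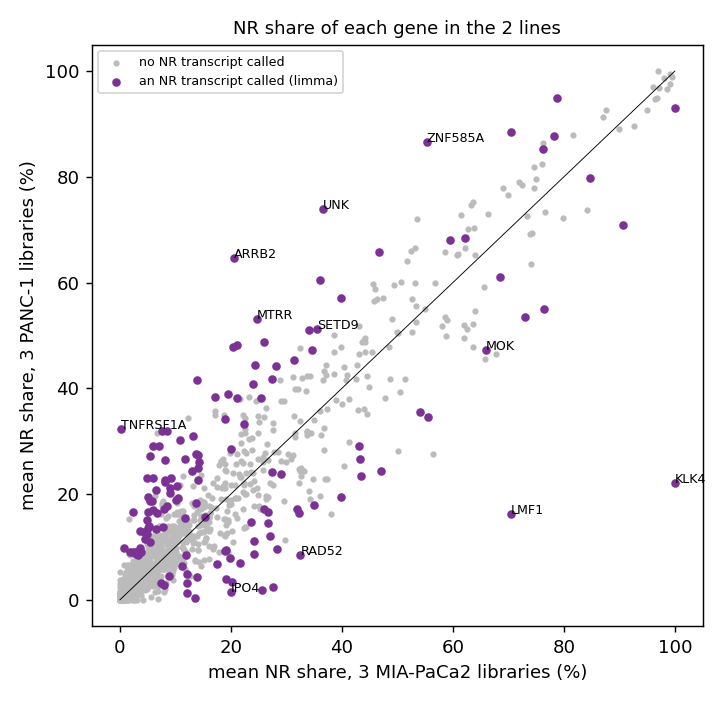
Mean NR share of each of the 1412 genes over the 3 MIA-PaCa2 libraries (horizontal axis, percent) and the 3 PANC-1 libraries (vertical axis, percent), with the line of equal shares. Purple points are the 140 genes with an NR transcript called by limma; KLK4 and LMF1 lie far below the line, TNFRSF1A and ARRB2 far above it.

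KLK4, a secreted serine protease of the kallikrein family, showed the widest gap. Its NR share was 100% in all 3 MIA-PaCa2 libraries and 26.3%, 10.8% and 29.1% in the LPCX, ESRP1 and ESRP2 libraries of PANC-1. The log2 odds of NR_126566 fell by 5.88 in PANC-1 (SE 0.217, adjusted p = 0.00136, limma). In MIA-PaCa2 almost nothing was left to the other transcripts, so the size and SE of this difference depend on the pseudocount of 0.5 TPM. The total level of the gene, 5.28 to 11.1 TPM, was not called between the lines (log2 difference -0.38, SE 0.188, adjusted p = 0.115, limma). LMF1, needed for lipases to fold in the endoplasmic reticulum, had 75.6%, 66.2% and 69.4% in the MIA-PaCa2 libraries and 17.4%, 15.8% and 15.3% in those of PANC-1. Its NR_036442, which GENCODE lists as a long intergenic noncoding RNA, fell by 3.42 on the log2 odds scale (SE 0.188, adjusted p = 0.00388, limma). Again the gene total, 12.9 to 16.2 TPM, was not called (adjusted p = 0.223, limma). IPO4, a nuclear import receptor, had 21.0%, 17.6% and 21.4% in the MIA-PaCa2 libraries and 1.73%, 1.49% and 1.26% in those of PANC-1 (log2 odds -3.74, SE 0.274, adjusted p = 0.00651, limma), at totals of 114 to 133 TPM. For these 3 genes the coding isoforms made up the larger part of the PANC-1 total. In IPO4 they also made up the larger part in MIA-PaCa2.

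The opposite pattern was found for TNFRSF1A, receptor 1 for tumour necrosis factor. Its NR_144351 had 0.143%, 0.197% and 0.387% of the gene in the MIA-PaCa2 libraries and 29.7%, 28.3% and 38.8% in those of PANC-1. In TPM that was 0.416 to 0.903 in MIA-PaCa2 and 26.3 to 32.2 in PANC-1, while the gene total was 233 to 290 TPM in MIA-PaCa2 and 83.1 to 95.3 TPM in PANC-1. The log2 odds rose by 6.84 in PANC-1 (SE 0.304, adjusted p = 0.00221, limma) while the total fell by 1.54 on the log2 scale (SE 0.0562, adjusted p = 8.69e-06, limma). ARRB2, or beta-arrestin 2, which desensitizes G protein-coupled receptors, had 22.2%, 21.1% and 18.6% in the MIA-PaCa2 libraries and 65.3%, 62.1% and 66.7% in those of PANC-1. Its NR_047516 rose by 2.75 (SE 0.193, adjusted p = 0.00607, limma). The GENCODE match of NR_047516 is classed as protein coding and is shared with another RefSeq transcript.

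UNK, an RNA-binding zinc finger protein, had 37.9%, 38.7% and 33.1% in the MIA-PaCa2 libraries and 76.7%, 72.9% and 72.1% in those of PANC-1. The isoform, NR_038131, has an extra exon and belongs to the NMD class. The gene total was also higher in PANC-1, by 1.32 on the log2 scale (SE 0.0616, adjusted p = 1.87e-05, limma). ZNF585A, a zinc finger protein, had 57.0%, 57.4% and 51.5% in the MIA-PaCa2 libraries and 86.7%, 86.8% and 85.9% in those of PANC-1, with a total that rose by 2.18 (SE 0.118, adjusted p = 2.97e-05, limma). In both genes the NR share and the total were higher in the same line.

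MOK, a kinase related to the MAP kinases, differed in which NR isoform it carried. The gene total was 256 to 276 TPM in MIA-PaCa2 and 5.72 to 8.42 TPM in PANC-1, and its whole NR share differed less, 64.8% to 66.8% against 43.9% to 49.7%. NR_073541 held 50%, 50.5% and 47.7% of the gene in MIA-PaCa2, was listed at 0% with LPCX and ESRP1 in PANC-1 and stood at 6.85% with ESRP2. NR_073540, an NMD transcript that skips an exon, had 4.71% to 6.86% in MIA-PaCa2 and 30.3% to 35.0% in PANC-1 (log2 odds 3.05, SE 0.248, adjusted p = 0.00730, limma).

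**Figure D5:**
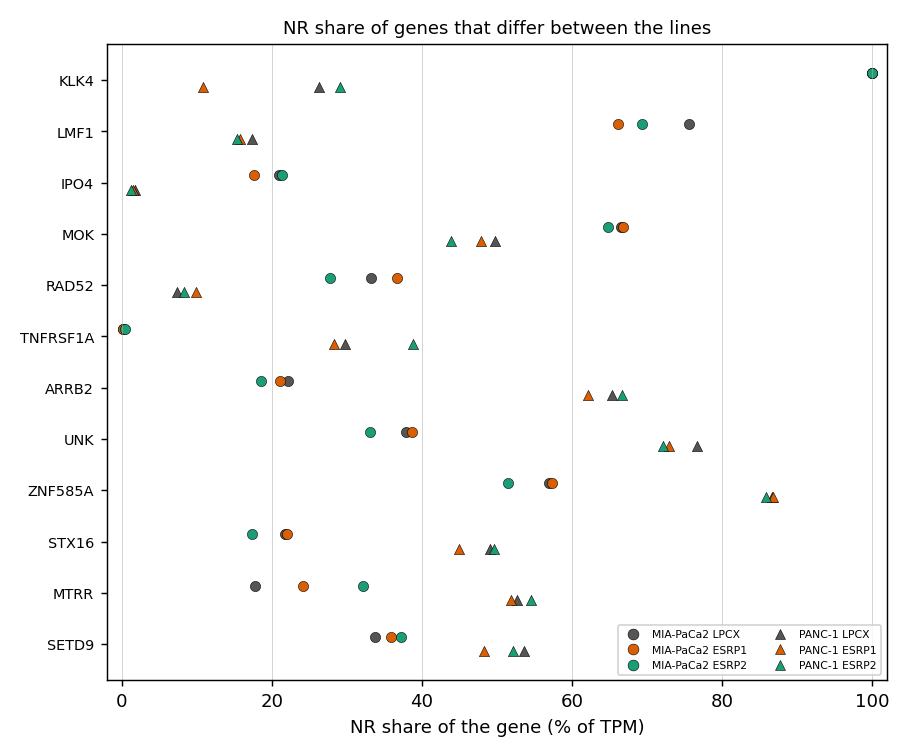
NR share of the gene (horizontal axis, percent of TPM) in each library for 12 genes that differ between the lines, circles for MIA-PaCa2 and triangles for PANC-1. The 3 libraries of a line lie close together in most genes, as for ARRB2 at 18.6% to 22.2% in MIA-PaCa2 and 62.1% to 66.7% in PANC-1, while KLK4 spreads from 10.8% to 29.1% in PANC-1.

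Isoforms with printed stops were among those called between the lines with all 6 libraries. TIMM8B, a chaperone of the mitochondrial intermembrane space, had 21.0%, 18.5% and 18.8% in the MIA-PaCa2 libraries and 35.7%, 40.9% and 40.1% in those of PANC-1 (log2 odds 1.35, SE 0.203, adjusted p = 0.0216, limma). MTRR, which reactivates methionine synthase, had 16.5%, 20.4% and 30.3% in NR_134482 in the MIA-PaCa2 libraries and 49.3%, 49.0% and 50.8% in those of PANC-1 (log2 odds 1.77, SE 0.254, adjusted p = 0.0201, limma). FBXO22, the substrate-binding part of a ubiquitin ligase, had 5.56%, 4.42% and 5.37% in the MIA-PaCa2 libraries and 18.1%, 23.5% and 16.7% in those of PANC-1 (log2 odds 1.88, SE 0.273, adjusted p = 0.0204, limma). None of these 3 held in every fit with 1 library left out, where the adjusted p in limma ran from 0.0579 to 0.1 for TIMM8B, from 0.0447 to 0.0914 for MTRR and from 0.0641 to 0.0896 for FBXO22. Of the 68 tested transcripts with the stop in 1 extra exon, 11 were called, which is read against the background of 16.9% of all transcripts called. RAD52, a homologous recombination protein, had one of the extra-exon isoforms at 33.2%, 36.7% and 27.8% in the MIA-PaCa2 libraries and 7.35%, 9.86% and 8.23% in those of PANC-1. Its log2 odds fell by 2.02 (SE 0.216, adjusted p = 0.0119, limma), and with 1 library left out the adjusted p in limma ran from 0.0425 to 0.0683.

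The SR proteins called between the lines went in both directions. Of 9 NR transcripts tested on that list 4 were called higher in PANC-1 and 1 lower, where 8.02% of all transcripts were called higher and 8.90% lower. SRSF2 rose by 1.54 on the log2 odds scale (SE 0.263, adjusted p = 0.0266, limma) while SRSF6 fell by 0.87 (SE 0.201, adjusted p = 0.0481, limma). SRSF1 and SRSF8 also rose, by 1.41 (SE 0.283, adjusted p = 0.0364, limma) and 1.5 (SE 0.275, adjusted p = 0.0306, limma). None of these 4 was called in any fit with 1 library left out. Among hnRNPs and other splicing regulators, 0 of 11 tested NR transcripts were called by limma, beside the 16.9% of all transcripts, with HNRNPA1 at an adjusted p of 0.402 and SFPQ at 0.779. Zinc finger genes had 2 of 36 tested NR transcripts called, both higher in PANC-1, beside the 8.02% of all transcripts called in that direction. With 9, 11 and 36 transcripts tested, these counts are descriptions of the lists.

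The decay machinery was also compared at the level of gene totals. Of 29 genes on the NMD and exon junction list, limma called 8 higher and 11 lower in PANC-1, where 43.1% of all gene totals were called higher and 35.6% lower. UPF1, the central helicase of NMD, was at 96.6, 114 and 118 TPM in the MIA-PaCa2 libraries and 70.8, 79.2 and 83.7 TPM in those of PANC-1, and its total fell by 0.48 (SE 0.0547, adjusted p = 4.80e-04, limma). UPF3A and UPF3B, which bridge UPF2 and the junction complex, rose by 0.97 (SE 0.0889, adjusted p = 2.08e-04, limma) and 0.78 (SE 0.0710, adjusted p = 2.04e-04, limma). None of the 29 was called for ESRP1 or ESRP2, and the list's median log2 difference was 0.11 for ESRP1 and 0.13 for ESRP2, against 0.06 for all genes in both. Whether these levels bear on the NR shares was not tested. For the 1412 genes themselves limma called 594 totals higher and 485 lower in PANC-1, beside the same 43.1% and 35.6% of all gene totals.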

How the data were processed

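Per the labels' protocols, a TruSeq mRNA kit was used on total RNA of both cell lines, which gave 6 libraries, 1 per line and construct. The authors deposited 1 table of TPM per RefSeq transcript. Per the submitters' processing notes, Salmon and GRCh38 (hg38) were used; the sources used here give neither versions nor the annotation release. TPM keep no read number, so depth is unknown, no counting intervals are given, and the number of libraries limits the precision.

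Of 67792 deposited lines 8664 repeated another line and were dropped, after which 59128 transcripts, 13668 of them NR, remained and each library summed to 1000000 TPM. Columns were matched to samples by line and construct. The column headed ESRP12 was taken as MIA-PaCa2 ESRP2, and a respelled line name as MIA-PaCa2 LPCX, by elimination. TPM were summed per gene symbol. NR shares come from the authors' quantification, which divides reads among overlapping transcripts, and genes with near-identical copies are uncertain.

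With limma 3.58.1 (R 4.3.3), log2((transcript TPM + 0.5)/(rest of gene TPM + 0.5)) was fitted with a trend for transcripts with a mean share of 5% or more, with construct and line as terms and 2 residual degrees of freedom. Gene totals were fitted as log2(TPM + 1) for the 11829 genes that reached 5 TPM in 2 libraries or more. P-values were adjusted by Benjamini-Hochberg over all features of a contrast, and 0.05 was the threshold. The spread in these fits measures how far the 2 lines disagree about a construct. The libraries of a line carry different constructs, and no construct was repeated within a line. The spread between cultures of the same line and construct was therefore not measured. The fits were also run on simulated data with known changes. The recovery is not given, so this does not tell how many true changes the fits miss. Exact permutation tests used scipy 1.17.1 (Python 3.11.15, pandas 2.3.3). NR transcripts were paired with GENCODE 29 through its RefSeq cross-references.

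The 1412 genes and the 14 gene lists were chosen with earlier results of these data known. Named genes were the 10 highest by NR share and by NR TPM, up to 8 per direction differing the same way in both lines or separating the lines, 3 per direction in each line and construct, up to 10 called per contrast, 4 per list and the genes beside the threshold. Some genes with a printed sequence (TIMM8B, FBXO22), SRSF1, SRSF8 and the NMD factors UPF1, UPF3A and UPF3B were chosen after their values were seen. A gene and a sequence are not reported here. Alternatives were other minimum levels, pseudocounts, steps and share filters, median ratio scaling, no line term, repeated lines kept and leaving out each library.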

Additional observations from a re-analysis of the deposited data

Results flagged for a closer look

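In some genes the NR share differed from LPCX by 10 points or more in opposite directions in MIA-PaCa2 and PANC-1. The difference between the lines was not tested, since each value is a difference of 2 single libraries, and the gaps are PANC-1 minus MIA-PaCa2 in percentage points. Of the 892 NR transcripts tested, 1.01% for ESRP1 and 1.35% for ESRP2 did the same, beside 1.39% and 1.53% of all transcripts tested.

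With ESRP1, DHPS was at 11.1 points from LPCX in MIA-PaCa2 and -11.9 in PANC-1, a gap of -23.0. For EPS15L1 the differences were -18.0 and 24.9 points and the gap 42.9. The values of LIPT1 were 11.3 and -10.4 points, and the gap was -21.7. LOC100996842 had 39.2 and -10.2 points, a gap of -49.4. For RMI2 the differences were 13.5 and -21.9 points and the gap -35.4. The values of SERGEF were -23.5 and 13.4 points, and the gap was 36.9. SLC29A3 had -17.2 and 12.7 points, a gap of 30.0. For TMEM116 the differences were -10.4 and 12.6 points and the gap 23.1. The values of TMEM167B were 10.3 and -13.2 points, and the gap was -23.5. ZNF75A had -17.0 and 19 points, a gap of 36. In 5 of these 10 genes the share was higher with ESRP1 in MIA-PaCa2 and lower in PANC-1.

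With ESRP2, BRSK2 was at -12.1 points from LPCX in MIA-PaCa2 and 14.3 in PANC-1, a gap of 26.4. For C19orf47 the differences were -11.5 and 18.8 points and the gap 30.2. The values of FAAP100 were -13.7 and 13.3 points, and the gap was 27.0. H2AFJ had -25.8 and 28.6 points, a gap of 54.4. For LOC100996842 the differences were 23.8 and -20.4 points and the gap -44.2. The values of MRPS25 were -15.8 and 10.3 points, and the gap was 26.1. NAXD had -15.3 and 10.5 points, a gap of 25.8. For RHOU the differences were 21.0 and -22.2 points and the gap -43.2. The values of SERGEF were -18.0 and 24.3 points, and the gap was 42.3. ST3GAL3 had -10.2 and 10.6 points, a gap of 20.9.

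SERGEF and LOC100996842 appear for both constructs, which share the LPCX library of each line.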

How the results depend on the processing

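With 1 library per line and construct, the cell line serves as the block of this design. With no replicate block, that is without the line term, limma called 0 NR transcripts for ESRP1 and 0 for ESRP2, and 10 and 13 had an unadjusted p under 0.05. No NR transcript was called for either construct under any setting run, and the unadjusted counts ran from 10 to 121 for ESRP1 and from 13 to 147 for ESRP2. The 148 NR transcripts called between the lines became 329 with no filter on the share, 87 with a pseudocount of 0.1 TPM, and 10 to 24 with 1 library left out, which leaves fewer residual degrees of freedom. Without 1 library the count was 11 without MIA-PaCa2 ESRP1, 24 without MIA-PaCa2 ESRP2, 16 without MIA-PaCa2 LPCX, 10 without PANC-1 ESRP1, 24 without PANC-1 ESRP2 and 16 without PANC-1 LPCX. The 4 genes past the step in both lines for ESRP1 became 52 at 5 points, 0 at 20 points, 2 at a minimum of 10 TPM and 14 at 1 TPM. The 7 for ESRP2 became 50, 0, 1 and 21 under the same settings. The cause of the shift with the pseudocount was not tested. The other counts stayed within 1.5 times their value: the genes separating the lines by 10 points or more numbered 103 to 170 (130 in the report), and the called totals between the lines 1073 to 1079. The higher median share of PANC-1 was 0.878 and 1.04 points at minimum levels of 10 and 1 TPM. Keeping the repeated lines moved none of the 130 named genes' mean shares. Read depth is unknown, so low isoforms cannot be given a counting error.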
